A study of Homo sapiens with 12 samples.

Results

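Solute carriers are the membrane proteins that move nutrients, ions, metals and metabolites across membranes, and their genes carry symbols made of SLC, a family number, the letter A and a member number. The table of 26485 genes holds 334 genes with such a symbol. The 173 genes described here were chosen by their level, as those with a mean read count of 50 or more over the 12 samples, and they come from 40 of the 48 families in the table. RNA was sequenced from spheroids of 3 lines of DU145, an established prostate cancer cell line, with 4 samples of each line. All 3 lines descend from cells edited with Crispr/Cas9 in ITGA2, the α2 integrin gene. DU145KO is the edited line without surface α2 integrin, a population of cells selected by GFP and not described as a clone. DU145KO+α2 is the same line with a stably transfected α2 integrin cDNA in the pAWneo2 vector, and DU145KO+vector carries the empty vector. Both transfected lines, unlike DU145KO, were kept in geneticin, so transfection and selection separate them from DU145KO. The spheroids of 8000 cells were grown for 72 hours in serum-free medium, and unedited DU145 cells were not analysed here.

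A solute carrier works by exposing its binding site alternately to the 2 sides of a membrane. Some carriers exchange a substrate for another, and others couple uptake to the sodium or proton gradient. Plasma membrane carriers bring glucose, amino acids and choline into the cell and export lactate and acid. The SLC25 family instead serves the inner mitochondrial membrane, and the SLC35 family carries nucleotide sugars into the Golgi apparatus. Prostate epithelium is known for its zinc transport, which the ZIP (SLC39, towards the cytosol) and ZnT (SLC30, away from the cytosol) families carry out.

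The total count was 13948734 to 19988111 per sample. ITGA2, in the authors' RPKM (a read count scaled for gene length and library size), was 32.5 to 41.7 in DU145KO+α2 and 1.63 to 3.2 in the 2 negative lines. The epithelial markers KRT8 (140 to 275 RPKM), KRT18, EPCAM and CDH1 were expressed in all 12 samples. The prostate marker KLK3 had no count in any sample. The 18 pairs of samples of the same line were all further apart than sampling noise allows.

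The choice by mean count left 161 SLC genes out, 23 of them with no count in any sample. Just inside the threshold were SLC38A3 (mean count 50.6), SLC6A17 (54.9) and SLC22A15 (68.2), and just outside were SLC44A5 (48.8), SLC43A1 (45.9) and SLC43A3 (44.5). SLC40A1, the iron exporter ferroportin, had a mean count of 32.7 and was not a member. SLC1A3, a glial glutamate transporter, had 15.2 and SLC2A3, a high-affinity glucose transporter, had 10.3. All 173 members passed the filter on low counts, as did 40 of the genes left out.

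Levels of the members spanned from 0.405 RPKM for SLC4A8 to 146 RPKM for SLC25A3 in the mean over the 12 samples, with a median of 8.73. A mean of 100 RPKM or more was reached by 4 genes, all of them mitochondrial carriers, while 74 members had 10 to 100, 89 had 1 to 10 and 6 had less than 1. SLC25A3, the mitochondrial phosphate carrier, was at 122 to 170 RPKM in the 12 samples. The ADP/ATP carriers SLC25A6 (121 to 162) and SLC25A5 (102 to 142) lay in the same range, and SLC25A39 had a mean of 110. SLC25A3, SLC25A5 and SLC25A6 together made up 13.1% to 15.5% of the summed RPKM of the members. None of the 3 was called in a comparison of the lines described below (edgeR's quasi-likelihood test, adjusted p = 0.233 or more), except SLC25A5 with the replicate number as a block (DU145KO+α2 against DU145KO+vector, log2 fold change −0.16, adjusted p = 0.0359).

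**Figure D1:**
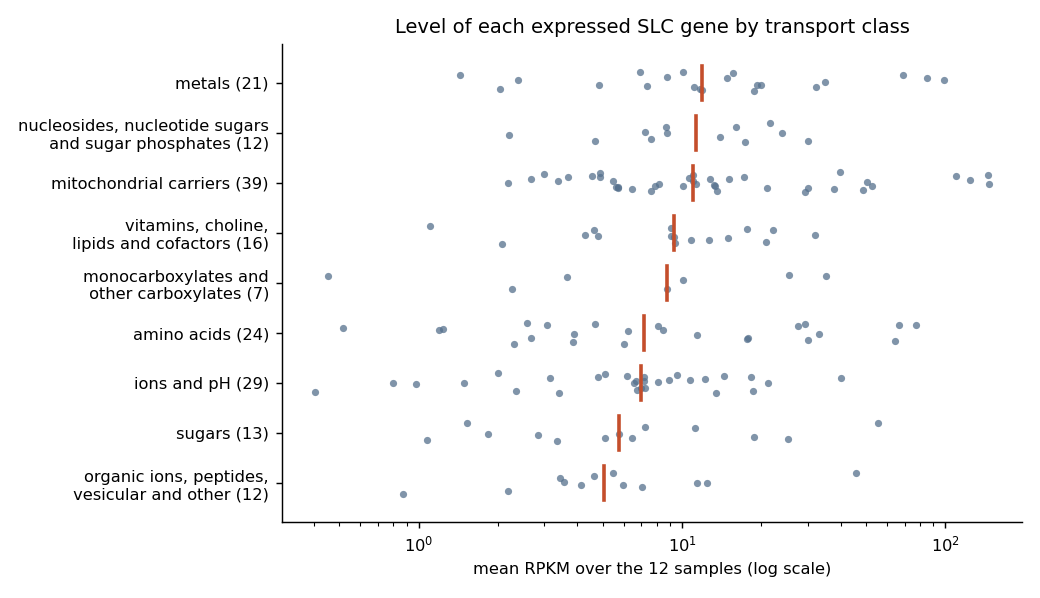
Mean RPKM over the 12 samples (log axis) of each of the 173 expressed SLC genes, 1 point per gene. Genes are grouped into transport classes by SLC family number, with the number of members in brackets and the median as a vertical line. The 4 points at 100 RPKM or more are mitochondrial carriers, and the class medians lie between 5.05 for organic ions and 11.9 for metals.

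Among the metal carriers, SLC39A6 (ZIP6) led with 85.4 to 108 RPKM and was followed by SLC39A1 with a mean of 85.1. SLC30A9 had 62.3 to 83.5 RPKM, and SLC11A2, the divalent metal transporter DMT1, 9.46 to 13.1. In the amino acid class the highest means were those of SLC3A2 (77.1), the heavy chain of several heterodimeric carriers, of SLC6A6 (66.8), the taurine transporter, and of SLC38A2 (64.6), a sodium-coupled carrier of small neutral amino acids. The highest sugar carrier was SLC50A1 (SWEET1) with 48.3 to 61.2 RPKM, and SLC2A1 (GLUT1), with 14.7 to 24, led the SLC2 family. Lactate transport was led by SLC16A3 (MCT4) with 29.5 to 50.1 and SLC16A1 (MCT1) with 20.8 to 27.4. SLC4A2, a chloride/bicarbonate exchanger, was the highest member of the ion class at 35.8 to 44. SLC20A1 (18.1 to 24.1 RPKM) imports phosphate, and SLC12A2 (6.18 to 8.62) imports sodium, potassium and chloride. Further leading members were SLC22A31 (29.4 to 62.2 RPKM) of the organic ion family, SLC27A2 (14.9 to 20.2) of the fatty acid family, SLC29A1 (14.8 to 19.7), the nucleoside transporter ENT1, SLC35A4 (20.3 to 28.2) and the folate carrier SLC19A1 (9 to 11.8).

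The comparison of DU145KO+α2 with DU145KO+vector sets a line with α2 integrin beside a line without it when both were transfected. Each condition is a single line with 4 samples, so α2 integrin cannot be told apart from other differences between the lines. SLC1A1, a glutamate transporter, and SLC47A1, an exporter of organic cations, were more than 2 times higher in DU145KO+α2, and SLC16A9, of the monocarboxylate transporter family, was lower at a fold of 0.485. In all, 28 of the 173 members passed an adjusted p of 0.05 in edgeR's quasi-likelihood test with Benjamini-Hochberg adjustment over 14732 genes, and such genes are called here higher or lower. Of these, 14 were higher and 14 lower, where 5.96% of all genes tested were called higher and 5.95% lower. The members' share called in either direction was 16.2%, beside 11.9% of all genes and 12.5% of the 12234 genes with a mean count of 50 or more. In edgeR 62 members (35.8%) had an unadjusted p below 0.05, beside 24.9% of all genes. The 3 genes named above also passed a fold change of 2 (differentially expressed, DE), 2 of them higher beside 1.38% of all genes and 1 lower beside 0.821%. The median log2 fold change of the members was 0.01, and the median of its size was 0.16, beside 0.14 over all genes. The p-values measure the spread between these samples, which the methods describe as biological replicates. In bulk RNA, fewer cells with a transcript and less transcript per cell cannot be told apart.

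**Figure D2:**
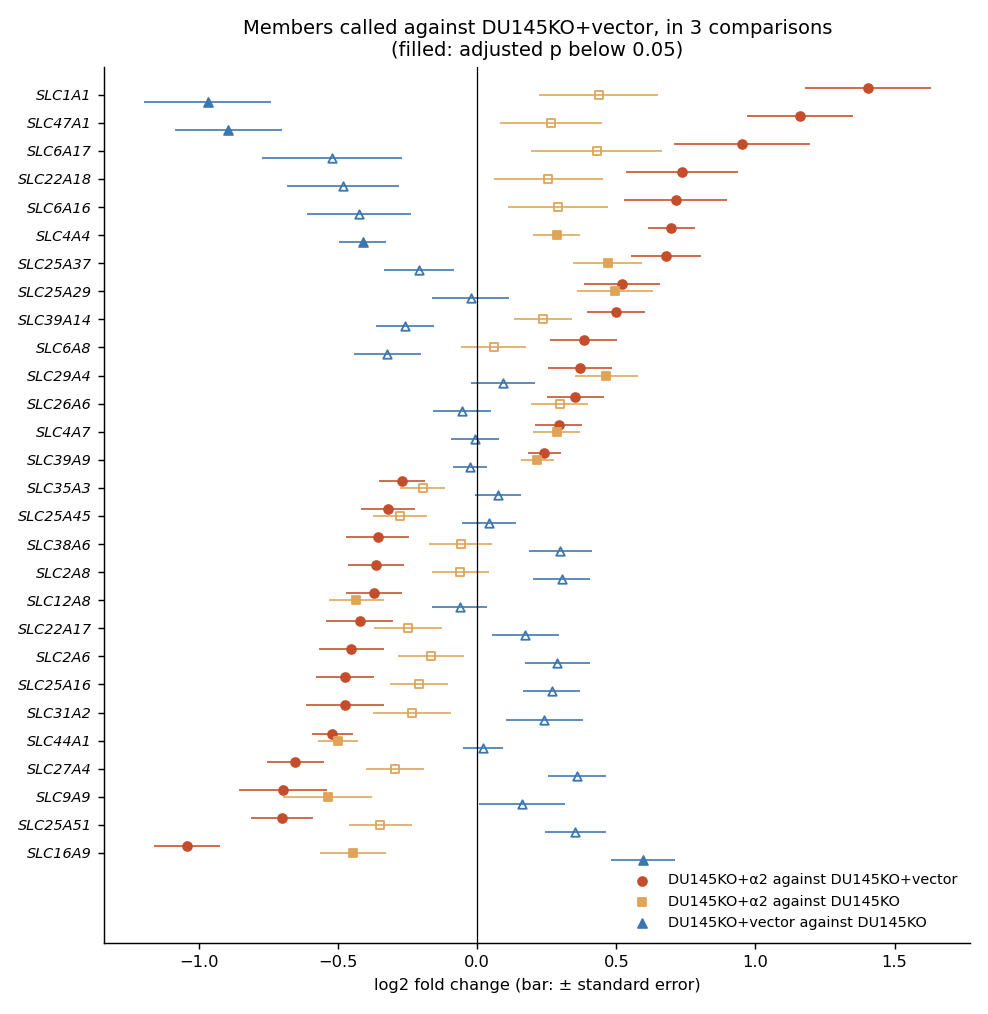
Log2 fold change with its standard error of the 28 SLC genes called between DU145KO+α2 and DU145KO+vector, in 3 comparisons that share samples, with filled symbols for an adjusted p below 0.05. SLC1A1 lies at 1.41 and SLC16A9 at −1.04 in DU145KO+α2 against DU145KO+vector, and most of the 28 are not called in the other comparisons.

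SLC1A1 (EAAT3) takes up glutamate, aspartate and cysteine. In order of replicate number, it had 4.96, 4.03, 4.22 and 4.17 RPKM in the DU145KO+α2 samples, and all series of 4 values below keep this order. The DU145KO+vector samples had 2.16, 2.04, 0.885 and 1.48, and the DU145KO samples 4.46, 2.74, 2.66 and 2.89. Every DU145KO+vector sample lay below all samples of the other lines, while DU145KO replicate 1 reached into the range of DU145KO+α2. DU145KO+α2 exceeded DU145KO+vector by a log2 fold change of 1.41 (SE 0.23, edgeR adjusted p = 0.00105). Against DU145KO it was 0.44 (SE 0.21, adjusted p = 0.263), and between DU145KO+vector and DU145KO it was −0.97 (SE 0.23, adjusted p = 0.0408). The difference between the transfected lines thus contains a lower level in DU145KO+vector than in DU145KO.

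SLC47A1 (MATE1) exports organic cations in exchange for protons. It had 4.64, 4.6, 5.15 and 3.75 RPKM in DU145KO+α2, 2.38, 2.48, 1.97 and 1.27 in DU145KO+vector and 4.03, 3.9, 4.38 and 2.64 in DU145KO. As for SLC1A1, the DU145KO+vector samples lay below all others, and those of DU145KO and DU145KO+α2 overlapped. The difference on the log2 scale was 1.16 (SE 0.19, edgeR adjusted p = 0.00101) against DU145KO+vector and 0.27 (adjusted p = 0.454) against DU145KO. Between DU145KO+vector and DU145KO it was −0.89 (SE 0.19, adjusted p = 0.023).

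SLC16A9 (MCT9) moved the other way. It had 5.88, 5.44, 5.99 and 6.48 RPKM in DU145KO+α2, 12.2, 10.7, 13.6 and 12.4 in DU145KO+vector and 6.42, 7.49, 8.28 and 9.87 in DU145KO. The DU145KO+vector samples were above all others, and DU145KO+α2 replicate 4 was just above the lowest DU145KO sample. The difference on the log2 scale was −1.04 (SE 0.12, edgeR adjusted p = 5.39e-05) against DU145KO+vector, −0.45 (SE 0.12, adjusted p = 0.0268) against DU145KO and 0.60 (SE 0.12, adjusted p = 0.011) between DU145KO+vector and DU145KO. It was the only member called in all 3 comparisons besides SLC4A4.

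The promoters of the members with the largest change in either direction that have an entry in the RefSeq table, SLC1A1 and SLC16A9, are shown as sequences next to a start of the genes that differed most. Each is the 250 bases before the RefSeq start in GRCh38.p14, with GC boxes (GGGCGG on either strand) and E-boxes (CACGTG) in capitals. The SLC1A1 promoter is at chr9:4490218-4490467 on the plus strand (74.4% GC) and that of SLC16A9 at chr10:59710080-59710329 on the minus strand (68.4% GC). In the GENCODE annotation SLC16A9 spans chr10:59650764-59736002 on the minus strand, so the RefSeq start used here lies inside that gene and the annotations give different starts.
SLC1A1 promoter: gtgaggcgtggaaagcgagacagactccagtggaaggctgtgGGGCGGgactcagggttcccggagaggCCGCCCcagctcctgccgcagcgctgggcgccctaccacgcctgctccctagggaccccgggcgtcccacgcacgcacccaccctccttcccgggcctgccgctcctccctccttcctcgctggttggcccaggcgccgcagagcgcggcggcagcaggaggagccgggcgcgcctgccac
SLC16A9 promoter: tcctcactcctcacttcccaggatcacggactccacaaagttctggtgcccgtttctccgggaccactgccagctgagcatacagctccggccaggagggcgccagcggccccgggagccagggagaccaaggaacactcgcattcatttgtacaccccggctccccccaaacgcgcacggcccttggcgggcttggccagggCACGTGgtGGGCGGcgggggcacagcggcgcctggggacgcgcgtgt
The SLC1A1 window holds 2 GC boxes, and the SLC16A9 window holds a GC box and an E-box that do not overlap. A GC box was present in 69.7% of the 142 member promoters and in 42.3% of 27305 promoters, and an E-box in 12% and 6.49%. Member promoters had a median GC content of 66.4%, beside 58% for all promoters. The members were chosen by their level and the other promoters were not, so these differences cannot be read as a trait of SLC genes. Among the called members with an entry, GC boxes were found in 7 of 10 promoters of the higher and 8 of 12 of the lower genes. A match describes letters only and is not a binding site.

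**Figure D3:**
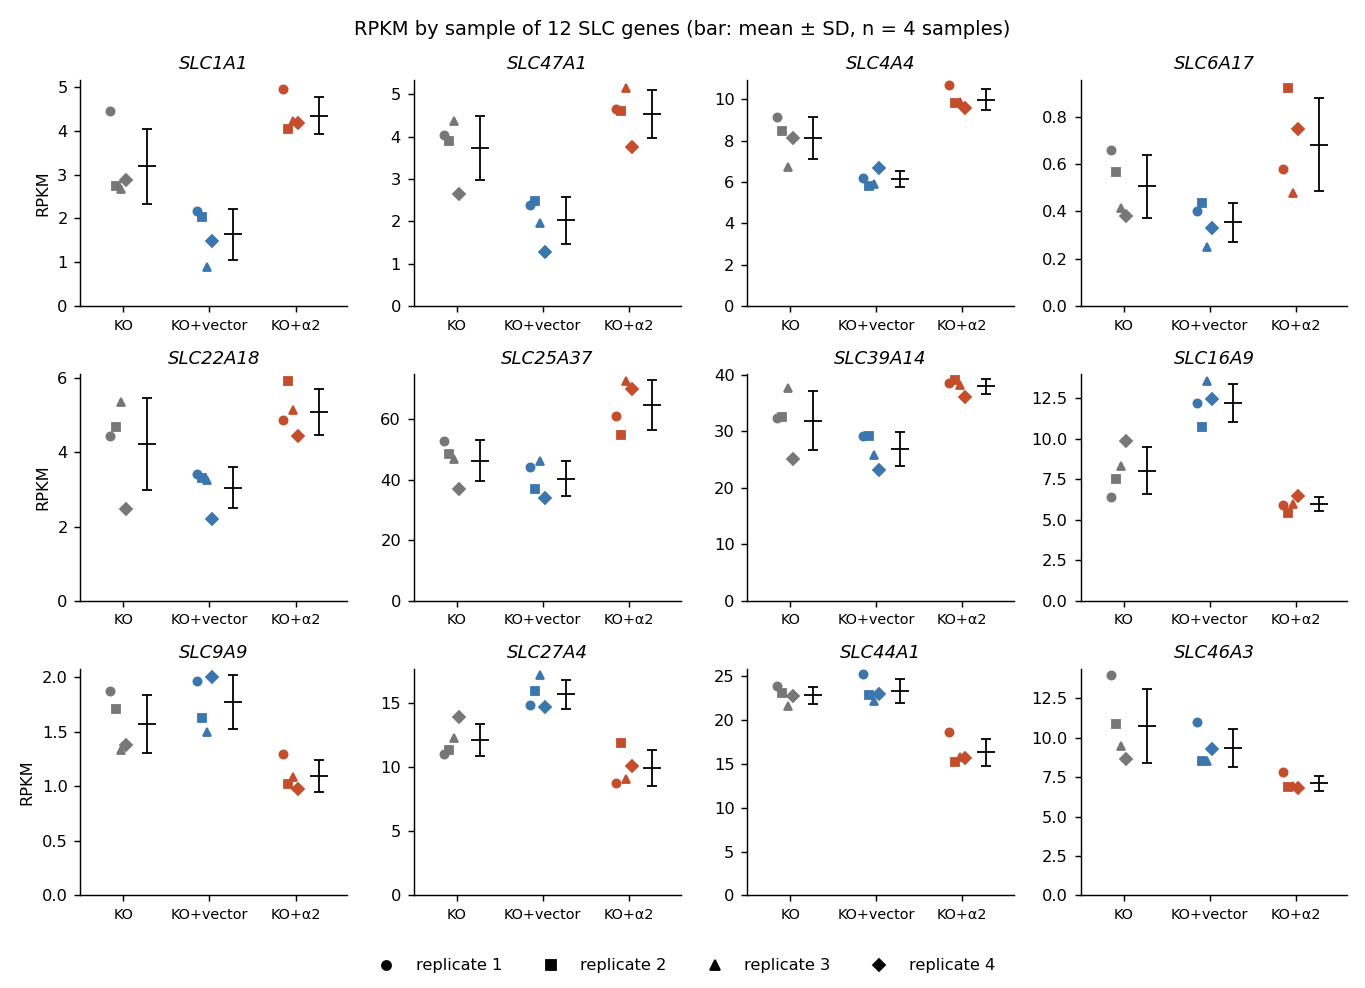
RPKM in each of the 12 samples of 12 SLC genes, with 1 symbol shape per replicate number, the mean ± SD of 4 samples as a bar beside the points and a separate axis from 0 for each gene. KO, KO+vector and KO+α2 are DU145KO, DU145KO+vector and DU145KO+α2. SLC1A1 and SLC47A1 are lowest in KO+vector, SLC16A9 is highest there, and SLC44A1 and SLC46A3 are lowest in KO+α2.

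Transport classes follow the family number alone, so a class can hold genes with another substrate. In the amino acid class, 4 of 24 members were higher and 1 lower when the transfected lines were compared. Of all genes tested, 5.96% were higher and 5.95% lower, and these shares apply to the counts of each class below. Besides SLC1A1, these were 3 of the 6 members of the sodium- and chloride-dependent SLC6 family. SLC6A17, a neutral amino acid transporter of synaptic vesicles, had 0.58, 0.923, 0.476 and 0.75 RPKM in DU145KO+α2 and 0.401, 0.438, 0.25 and 0.331 in DU145KO+vector (log2 fold change 0.95, SE 0.24, edgeR adjusted p = 0.0177). SLC6A16, an orphan of the family, had 3.02, 2.48, 3.58 and 2.37 against 2, 1.3, 2.3 and 1.31 (0.71, SE 0.18, adjusted p = 0.0185). The groups did not overlap for either gene, although SLC6A17 is among the 3 members just inside the threshold on counts. Its mean was 0.682 RPKM in DU145KO+α2, 0.505 in DU145KO and 0.355 in DU145KO+vector. The line where it is highest thus raised the mean count by which it was chosen. SLC6A8, the creatine transporter, differed by 0.38 (adjusted p = 0.0484), with samples at 2.71 to 3.34 in DU145KO+α2 and 1.84 to 2.5 in DU145KO+vector. Its transcripts share 7.08% of their 50-base stretches with SLC6A10P, so reads of the copies may be mixed or lost. The fold changes of these 3 genes against DU145KO were 0.43, 0.29 and 0.06, and none was called. SLC6A6, by far the most abundant of the family in RPKM, was not called (52.9 to 67.5 RPKM in DU145KO+α2, 69 to 74.8 in DU145KO+vector, 63 to 70.8 in DU145KO), and with the replicate number as a block it was lower (log2 fold change −0.20, adjusted p = 0.0275). The lower member was SLC38A6, at −0.36 (adjusted p = 0.0499).

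Among 29 carriers of ions and pH, 3 were higher and 2 lower, beside 5.96% and 5.95% of all genes. SLC4A4 (NBCe1), a sodium bicarbonate cotransporter, had 10.7, 9.8, 9.85 and 9.59 RPKM in DU145KO+α2, 6.18, 5.82, 5.89 and 6.68 in DU145KO+vector and 9.15, 8.44, 6.74 and 8.11 in DU145KO. The lines were ordered without overlap, with DU145KO between the transfected lines. Its log2 fold change was 0.70 (SE 0.09, edgeR adjusted p = 9.36e-05) against DU145KO+vector, 0.29 (adjusted p = 0.0466) against DU145KO, and −0.41 (adjusted p = 0.0173) for DU145KO+vector against DU145KO. SLC4A7 (NBCn1), a related bicarbonate importer, differed by 0.29 from both negative lines (adjusted p = 0.0332 and 0.0488), with 7.64 to 9.25 RPKM in DU145KO+α2 and 5.87 to 7.1 in the others. SLC26A6, an anion exchanger, was higher by 0.35 (adjusted p = 0.0332), but its groups overlapped.

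SLC9A9 (NHE9) is an endosomal sodium/proton exchanger with its lowest level in DU145KO+α2. It had 1.3, 1.02, 1.08 and 0.975 RPKM there, 1.97, 1.62, 1.5 and 2 in DU145KO+vector and 1.88, 1.71, 1.33 and 1.38 in DU145KO. No DU145KO+α2 sample reached a sample of the negative lines, although the gap to DU145KO was narrow. The log2 fold change was −0.70 (SE 0.16, edgeR adjusted p = 0.00874) against DU145KO+vector and −0.54 (adjusted p = 0.0491) against DU145KO. SLC12A8, of the cation chloride cotransporter family, was lower by a log2 fold change of −0.37 and −0.43 against the same lines (adjusted p = 0.0232 and 0.0121). SLC12A2, the importer of sodium, potassium and chloride, was not called (0.03, adjusted p = 0.892).

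Of 21 metal carriers, 2 of the 11 ZIP genes were higher and a copper carrier was lower, while none of the 7 ZnT genes was called. The shares of all genes were 5.96% higher and 5.95% lower. SLC39A14 (ZIP14), which imports zinc, iron and manganese, had 38.5, 39, 38.2 and 36 RPKM in DU145KO+α2, 29.1, 29.2, 25.8 and 23.1 in DU145KO+vector and 32.3, 32.4, 37.6 and 25 in DU145KO. The transfected lines were separate, and DU145KO replicate 3 lay within the DU145KO+α2 range. The log2 fold change against DU145KO+vector was 0.50 (SE 0.11, edgeR adjusted p = 0.00527). SLC39A9 (ZIP9) was higher than in either negative line, by 0.24 and 0.22 (adjusted p = 0.0147 and 0.0361), with 37.6 to 40.3 RPKM in DU145KO+α2 and 31.6 to 35.3 in the 8 other samples. SLC39A10 (ZIP10) differed from DU145KO by 0.26 (adjusted p = 0.033) and was not called against DU145KO+vector. SLC31A2, a copper transporter of inner membranes, was lower by a log2 fold change of −0.48 (adjusted p = 0.0358), but 64% of its exon bases overlap FKBP15 on the opposite strand, and the strand setting of the count is not given in the sources used here. SLC30A1, the plasma membrane zinc exporter, had 9.7 to 15.4 RPKM over all samples.

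Of 39 mitochondrial carriers, 2 were higher and 3 lower, near the shares of all genes (5.96% and 5.95%). SLC25A37 (mitoferrin-1), which brings iron into mitochondria, had 61.1, 54.8, 72.5 and 70 RPKM in DU145KO+α2, 44.2, 36.8, 46.1 and 34 in DU145KO+vector and 52.9, 48.5, 46.9 and 36.9 in DU145KO. DU145KO+α2 lay above both negative lines in every sample, and the negative lines overlapped. The log2 fold change was 0.68 (SE 0.13, edgeR adjusted p = 0.0023) against DU145KO+vector and 0.47 (adjusted p = 0.029) against DU145KO. SLC25A29, a carrier of basic amino acids, had 33.4 to 39.3 RPKM in DU145KO+α2 and 19 to 31.1 in the 8 negative samples (0.52 and 0.50, adjusted p = 0.0221 and 0.0369). SLC25A51, the mitochondrial NAD carrier, had 3.62, 3.79, 3.14 and 3.5 RPKM in DU145KO+α2 and 4.78, 6.61, 5.78 and 5.68 in DU145KO+vector (−0.70, SE 0.11, adjusted p = 0.0007). It shares 21.1% of its 50-base stretches with SLC25A52 and more with processed copies, so its count is uncertain. SLC25A16 (−0.48, adjusted p = 0.00634) and SLC25A45 (−0.32, adjusted p = 0.0413) were the other lower members.

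Of the other classes, carboxylates had SLC16A9 as the only called member of 7, and the lactate carriers SLC16A1 (−0.05, adjusted p = 0.779) and SLC16A3 (0.14, adjusted p = 0.626) were not called. In the sugar class, SLC2A6 (GLUT6, −0.45, edgeR adjusted p = 0.0177) and SLC2A8 (GLUT8, −0.36, adjusted p = 0.0274) were lower and SLC2A1 was not called (−0.06, adjusted p = 0.868). Among 12 organic ion and other carriers, SLC22A18 was higher (0.74, adjusted p = 0.0262) beside SLC47A1, with 4.45 to 5.92 RPKM in DU145KO+α2 and 2.21 to 3.41 in DU145KO+vector. Of its exon bases, 4.34% overlap SLC22A18AS on the opposite strand, so its count is uncertain. SLC22A17, a receptor for lipocalin 2, was lower (−0.42, adjusted p = 0.0309) with overlapping groups. Of 12 carriers of nucleosides and nucleotide sugars, SLC29A4, a monoamine transporter, was higher (0.37, adjusted p = 0.0444) and SLC35A3, which carries UDP-N-acetylglucosamine, was lower (−0.27, adjusted p = 0.0412).

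Of 16 carriers of vitamins, choline and lipids, SLC27A4 and SLC44A1 were lower. SLC27A4 (FATP4), a fatty acid transport protein, had 8.78, 11.9, 9.12 and 10.1 RPKM in DU145KO+α2, 14.9, 15.9, 17.2 and 14.7 in DU145KO+vector and 11, 11.3, 12.3 and 13.9 in DU145KO. DU145KO+vector was the highest line in every sample, and the other lines overlapped. SLC27A4 had a log2 fold change of −0.65 (SE 0.10, edgeR adjusted p = 0.000715) against DU145KO+vector and −0.29 (adjusted p = 0.102) against DU145KO. SLC44A1 (CTL1), a choline transporter, had 18.6, 15.2, 15.8 and 15.6 RPKM in DU145KO+α2, 25.3, 22.9, 22.2 and 23 in DU145KO+vector and 23.9, 23.1, 21.6 and 22.8 in DU145KO. DU145KO+α2 was below both negative lines, which overlapped each other. The log2 fold change was −0.52 (SE 0.07, adjusted p = 0.000247) against DU145KO+vector and −0.50 (SE 0.07, adjusted p = 0.00041) against DU145KO.

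Carriers of common nutrients, ions and metals were also read as a list of 31 genes, of which 28 are members. Against DU145KO+vector, SLC4A7, SLC6A8 and SLC39A14 were higher and SLC44A1 was lower, and the others were not called, with a median log2 fold change of −0.05 over the list. The shares of all genes in this comparison were 5.96% higher and 5.95% lower. With the replicate number as a block, 7 were higher and 6 lower, where 12.9% and 13.7% of all genes were called. Against DU145KO, SLC4A7 and SLC39A10 were higher and SLC44A1 was lower (3.09% and 5.08% of all genes), and with the block 4 were higher and 3 lower (9.93% and 12.4% of all genes). None was called between the negative lines without the block, where 0.496% and 1.84% of all genes were called higher and lower. With it SLC39A6 and SLC39A14 were lower in DU145KO+vector, beside 7.85% of all genes.

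Position on the chromosome moved with several of these differences. Chromosome 9 holds 9 members, of which 6 were called lower between DU145KO+α2 and DU145KO+vector (SLC25A51, SLC44A1, SLC31A2, SLC2A8, SLC27A4 and SLC2A6), and of its 542 genes tested 41.1% were lower, with a median log2 fold change of −0.30. The 25 nearest tested genes on each side of these 6 members had medians of −0.25 to −0.43. SLC31A1, the copper importer next to SLC31A2, was at −0.25 (edgeR adjusted p = 0.109) and SLC25A25 at −0.09 (adjusted p = 0.744). SLC1A1, nearer to the start of the chromosome than any of these 6, had neighbours with a median of 0.02. Among the 7 members on chromosome 8, the higher genes SLC39A14 and SLC25A37 had neighbours with medians of 0.57 and 0.49, and 24.6% of the 452 genes tested there were higher. The neighbours of SLC16A9, SLC47A1, SLC4A4 and SLC9A9 had medians between −0.02 and 0.05. Why neighbouring genes moved together was not tested.

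When the median deviation of the neighbours was removed from each sample, a step added after the data were seen, 16 members were called in place of 28 (10 higher and 6 lower), beside 9.57% of all genes. In that fit the members' larger share noted above for 28 calls (16.2% beside 11.9%) was not seen. With the replicate number as a block as well, 58 of the 173 members were called, again a larger share than the 24.9% of all genes. With the neighbour shift removed and no block, SLC27A4 was at −0.39 (edgeR adjusted p = 0.0181), SLC44A1 at −0.25 (adjusted p = 0.0641), SLC25A51 at −0.27 (adjusted p = 0.13) and SLC25A37 at 0.18 (adjusted p = 0.377), and SLC39A14 changed sign to −0.05 (adjusted p = 0.827). SLC2A6 (−0.14, adjusted p = 0.469), SLC2A8 (−0.11, adjusted p = 0.586) and SLC31A2 (−0.12, adjusted p = 0.635) lost their calls as well, also with the replicate number as a block. SLC6A8, SLC12A8, SLC22A17, SLC29A4 and SLC35A3 had neighbours with medians of −0.05 to 0.03. They also lost their calls (adjusted p = 0.0516 to 0.0864), but were called with the block. SLC1A1 (1.40), SLC47A1 (1.14), SLC4A4 (0.63), SLC9A9 (−0.66) and SLC16A9 (−1.11) were still called. Against DU145KO, 5 members were called in place of 15, beside 7.2% of all genes, with SLC44A1 among them at −0.33 (adjusted p = 0.0207), while SLC25A37 was at 0.16 (adjusted p = 0.518).

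**Figure D4:**
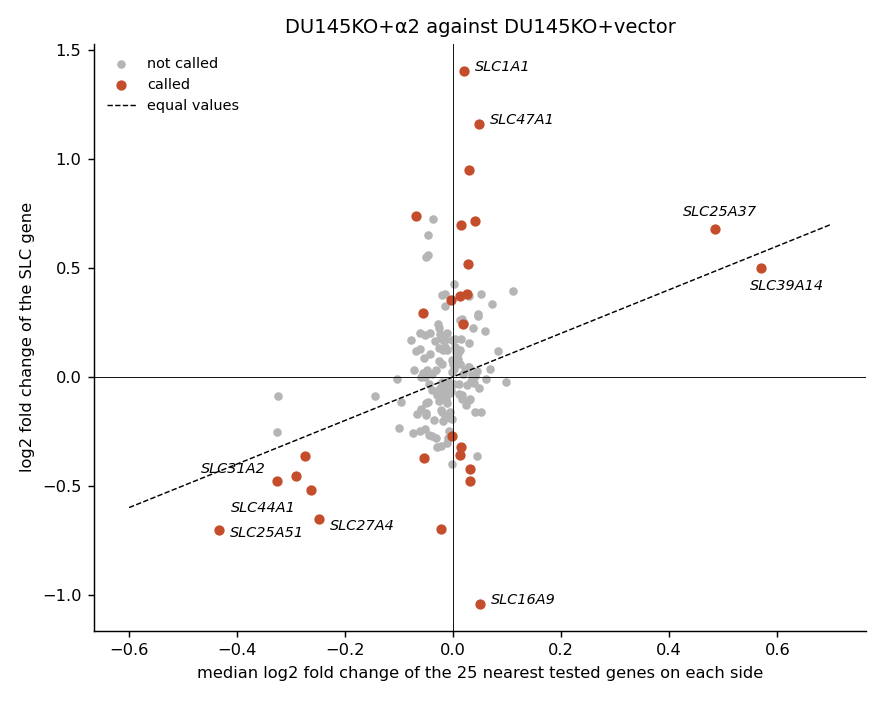
Log2 fold change of each SLC gene with a position in DU145KO+α2 against DU145KO+vector (vertical axis) and the median of its 25 nearest tested genes on each side (horizontal axis), with called members in red and a dashed line where both are equal. SLC39A14 and SLC25A37 lie near the line on the right and 6 called members of chromosome 9 on the left, while SLC1A1, SLC47A1 and SLC16A9 have neighbours near 0.

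The comparison of DU145KO+α2 with DU145KO, which share the edit and differ in the cDNA and in the transfection, called 15 members, 7 higher and 8 lower. The shares of all genes were 3.09% higher and 5.08% lower. None was DE by edgeR, voom with limma or DESeq2, where 0.428% of all genes were DE and higher and 1.67% DE and lower by edgeR. In edgeR 35 members (20.2%) had an unadjusted p below 0.05, beside 21.4% of all genes. SLC46A3, a lysosomal carrier, had the largest difference among the called members, with 7.82, 6.86, 6.91 and 6.82 RPKM in DU145KO+α2 and 14, 10.8, 9.48 and 8.66 in DU145KO (log2 fold change −0.61, SE 0.13, adjusted p = 0.00624). In DU145KO+vector it had 11, 8.55, 8.5 and 9.31, so both negative lines were above DU145KO+α2 in every sample, and the comparison with DU145KO+vector gave −0.40 (adjusted p = 0.0523).

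SLC37A1, a sugar phosphate antiporter, had 2.63, 3, 2.85 and 2.76 RPKM in DU145KO and was lower in both transfected lines. It had 1.56, 1.88, 2.22 and 1.92 in DU145KO+α2 and 1.98, 1.97, 1.77 and 1.95 in DU145KO+vector, without overlap with DU145KO. The log2 fold changes were −0.58 (edgeR adjusted p = 0.00862) and −0.56 (adjusted p = 0.0298), and its neighbours had medians of −0.18 and −0.14. With the neighbour shift removed SLC37A1 was at −0.43 (adjusted p = 0.0578) and −0.45 (adjusted p = 0.1) and lost both calls. Both were kept with the replicate number as a block as well. SLC36A1, a proton-coupled amino acid carrier of lysosomes (−0.45, adjusted p = 0.037), and SLC30A5, which brings zinc into the early secretory pathway (−0.27, adjusted p = 0.0352), were lower than in DU145KO with overlapping groups. Both lie on chromosome 5, and the medians of their neighbours were −0.28 and −0.19. With the neighbour shift removed they were at −0.19 (adjusted p = 0.498) and −0.07 (adjusted p = 0.675), and with only the compared lines in the fit neither was called. SLC29A4 was higher than in DU145KO, with 10.3, 11.2, 10.3 and 10.4 RPKM against 8.48, 6.49, 6.22 and 9.05 (0.46, SE 0.11, adjusted p = 0.0179).

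DU145KO+vector and DU145KO, both without α2 integrin, differ in the vector and its selection. This comparison called 5 members, where SLC16A9 was higher beside 0.496% of all genes, and SLC1A1, SLC47A1, SLC37A1 and SLC4A4 were lower beside 1.84%. None was DE by edgeR or DESeq2 (0.0272% of all genes were DE and higher and 0.808% DE and lower by edgeR), and 1 was DE by voom with limma. In edgeR 25 members (14.5%) had an unadjusted p below 0.05, beside 15% of all genes. SLC1A1, SLC47A1, SLC4A4 and SLC16A9 thus differed between the negative lines in the direction opposite to their difference between DU145KO+α2 and DU145KO+vector. The comparisons share the DU145KO+vector samples, so these values are not independent. None of the 5 calls between the negative lines was kept in every fit that left out a sample.

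Samples with the same replicate number deviated together, and with the number as a block in the model more members were called. Against DU145KO+vector, 37 members were higher and 28 lower, where 12.9% and 13.7% of all genes were called. Against DU145KO the counts were 18 and 21 (9.93% and 12.4% of all genes), and for DU145KO+vector against DU145KO 8 and 14 (5.59% and 7.85%). All 28 members called without the block were among the 65 called with it, and no further member passed a fold change of 2. Of the ZIP family 5 of 11 members were then higher than in DU145KO+vector and none lower, with SLC39A6 at 0.17 (edgeR adjusted p = 0.0188 with the block, 0.129 without), SLC39A1 at 0.16 and SLC39A10 at 0.17. SLC39A14 was also among these 5, and it lost its call when the neighbour shift was removed as well. SLC2A10, a glucose transporter family member, was higher by 0.41 (adjusted p = 0.000413 with the block), and SLC29A1 was lower by a log2 fold change of −0.20 (adjusted p = 0.0162 with the block). SLC1A1 was called against DU145KO only with the block (0.46, adjusted p = 0.0301), and SLC46A3 was then lower than in DU145KO+vector too (−0.39, adjusted p = 0.000916).

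The highest sample of a member was 1.45 times its lowest in the median over the 173 members, and it was more than 2 times the lowest in 28 members. Several amino acid carriers varied between samples of a line. In DU145KO the highest sample was 2.82 times the lowest for SLC7A5, but 1.85 times for SLC3A2 and 1.72 times for SLC38A1. SLC7A5 (LAT1), the light chain of a carrier of large neutral amino acids, had 24.4, 33.3, 53.7 and 19 RPKM in DU145KO, 22.3, 30.1, 28.7 and 24.2 in DU145KO+α2 and 18.9, 25.4, 31 and 18.6 in DU145KO+vector. Its partner SLC3A2 had 63.5, 89.7, 118 and 63.8 in DU145KO. The cystine/glutamate exchanger SLC7A11 (13.3, 18.1, 31.8 and 13.3) and the glutamine carrier SLC1A5 (28.2, 33.9, 52.5 and 23.7) were likewise highest in replicate 3 of that line. SLC1A4 (2.67, 4.68, 7.83 and 2.89) and SLC38A1 (25.7, 34.8, 44.2 and 28), which carry small neutral amino acids, had the same order of samples at the top. SLC43A2, another carrier of large neutral amino acids, had instead 7.48, 4.19, 3.12 and 5.18, with replicate 3 lowest. Replicate 3 was also the highest sample of DU145KO+vector for 5 of the 6 genes that were highest in DU145KO replicate 3, all but SLC3A2. In DU145KO+α2 it was the highest for 3 of the 6, and replicate 2 was the highest for SLC7A5, SLC3A2 and SLC1A5.

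None of these 6 genes was called in a comparison with DU145KO, and the values moved with that sample. SLC7A5 had a log2 fold change of −0.32 (edgeR adjusted p = 0.617) in DU145KO+α2 against DU145KO, and 0.03 (adjusted p = 0.967) without DU145KO replicate 3. SLC1A4 went from −0.52 (adjusted p = 0.404) to −0.11 (adjusted p = 0.859), and SLC7A11 from −0.32 (adjusted p = 0.615) to 0.05 (adjusted p = 0.944). What sets this sample apart was not tested. Up to 8.97% of the exon bases of SLC7A11 overlap SLC7A11-AS1 on the opposite strand.

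**Figure D5:**
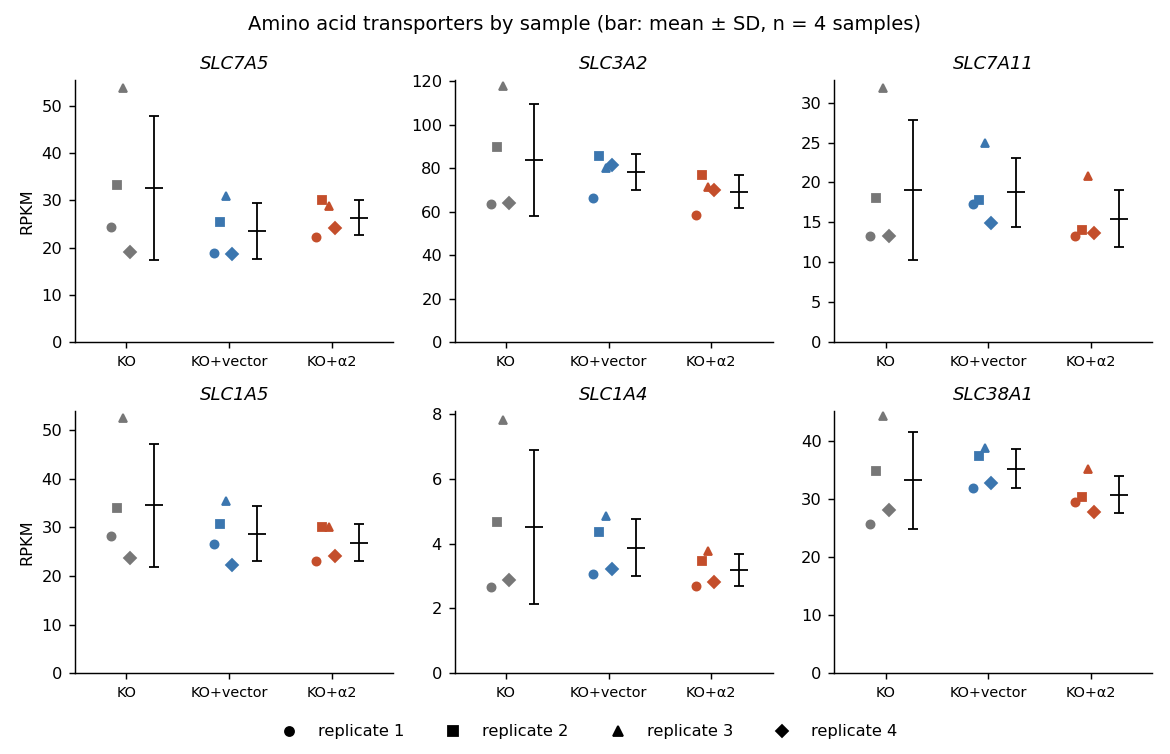
RPKM in each of the 12 samples of 6 amino acid transporter genes, with 1 symbol shape per replicate number, the mean ± SD of 4 samples as a bar beside the points and axes from 0. KO, KO+vector and KO+α2 are DU145KO, DU145KO+vector and DU145KO+α2. The triangle of DU145KO replicate 3 is the highest point of every panel, for example 53.7 RPKM for SLC7A5.

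Other transporter genes and partners of solute carriers were described from lists outside the 173 members. For all these lists, the shares of all genes against DU145KO+vector were 5.96% higher and 5.95% lower. Against DU145KO they were 3.09% and 5.08%, and for DU145KO+vector against DU145KO 0.496% and 1.84%. Of 12 genes of the organic anion SLCO family, 7 were tested. In the comparison with DU145KO+vector, SLCO1B1 (log2 fold change 0.999, edgeR adjusted p = 0.0295) was higher. SLCO2A1 (−0.62, adjusted p = 0.0168) and SLCO2B1 (−1.52, adjusted p = 0.0214) were lower. SLCO1B1 and SLCO2B1 were at low levels, with means of 0.324 and 0.284 RPKM over all samples, below the lowest member mean of 0.405. SLCO2B1 had a mean of 0.173 RPKM in both DU145KO+α2 and DU145KO and of 0.507 in DU145KO+vector, where it differed from DU145KO by a log2 fold change of 1.51 (adjusted p = 0.0655, and 0.00212 with the replicate number as a block). SLCO4C1 was lower than in DU145KO (−0.89, adjusted p = 0.00513). Of 46 ABC transporters, the ATP-driven pumps, 32 were tested, of which ABCC4 (MRP4) was lower by a log2 fold change of −0.57 against DU145KO+vector (adjusted p = 0.00236) and −0.37 against DU145KO (adjusted p = 0.0422). It had 32.9, 34.2, 31.9 and 24.7 RPKM in DU145KO+α2, 43.9, 50.6, 47.2 and 41.1 in DU145KO+vector and 34.9, 39.1, 45.8 and 38.2 in DU145KO. ABCA7 was lower than in DU145KO+vector (−0.34, adjusted p = 0.0128), and ABCG2 was higher in DU145KO+vector than in DU145KO (0.53, adjusted p = 0.0495).

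Of 7 accessory proteins, all tested, SLC9A3R2 (NHERF2), a scaffold of sodium/proton exchangers, was lower than in both negative lines. It had 11.9, 12.9, 9.18 and 12 RPKM in DU145KO+α2 and 15.4 to 18.4 in the 8 negative samples, with log2 fold changes of −0.56 (edgeR adjusted p = 0.0013) and −0.54 (adjusted p = 0.00219). EMB, a partner of monocarboxylate transporters, was lower (−0.28, adjusted p = 0.0314) and TMEM27, a partner of SLC6 amino acid transporters, was higher (0.83, adjusted p = 0.0347) than in DU145KO+vector. Of 31 SLC genes with a letter other than A, 22 were tested, and SLC35F5 was higher (0.22, adjusted p = 0.0498). Of 7 sodium pump subunits 5 were tested, and none was called in any comparison by edgeR.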

How the data were processed

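RNA of spheroids of 3 DU145 lines was sequenced, with 4 biological replicates of each. The authors prepared stranded mRNA libraries, aligned single-end reads to hg38 with TopHat 2.1.0 and counted uniquely aligned reads per gene with Subread 1.5.0. The read counts were deposited without normalization, and all tests used them. RPKM values, which the authors made after TMM normalization with 1 length per gene, give the levels printed here. The annotation version and the strand setting of the count are not given in the sources used here.

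Counts were analysed with edgeR 4.0.16 (R 4.3.3). Genes were kept by filterByExpr with a minimum count of 10 (14732 genes), normalized by TMM and tested with the robust quasi-likelihood test on all 12 samples, with Benjamini-Hochberg adjustment over all genes tested. A gene was called at an adjusted p below 0.05 and DE when its fold change was also above 2. Log2 fold changes, standard errors and adjusted p-values come from this fit unless another is named. Alternatives were DESeq2 size factors, the DESeq2 1.42.0 Wald test, voom with limma 3.58.1, no filter on low counts, only the compared lines, a block for the replicate number and leaving out single samples. Chosen after seeing the data was the removal of the median deviation of the 25 nearest tested genes on each side, with and without the block. Positions in GRCh38 were found for 172 of 173 members, and promoters from RefSeq for 142.

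Sample groups and replicate numbers come from the sample labels. All 12 pairs of samples with the same number in 2 lines deviated together from the line means (correlation over genes 0.135 to 0.554, mean 0.378, beside −0.126 for different numbers). The numbers were therefore taken to pair the samples, but only the fits with the replicate block used this pairing. The main fit, which gave the calls without the block, ignored it. No replicates were counted as duplicates. Total counts of 13948734 to 19988111 set the precision, and counts have no molecular identifiers, so counting error alone is covered by it. The scripts were tested on simulated counts.

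The members, transport classes and gene lists were chosen with earlier results of these data known. The classes were assigned by SLC family number. Genes named are, in each comparison, the 10 called members furthest up and the 10 furthest down, the highest member of each family with 4 or more members, a list of 31 transporters of common nutrients, ions and metals, the 3 genes on either side of the count threshold, and called genes of the companion lists. Further genes were named after their values were seen (SLC2A8, SLC2A10, SLC4A8, SLC25A25, SLC25A39, SLC25A45, SLC26A6, SLC31A1, SLC35A3, SLC38A6, SLC39A1 and SLC50A1). Some genes within this rule are not reported here.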

Additional observations from a re-analysis of the deposited data

Results flagged for a closer look

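For the named genes, a sample was looked for in each line that stands further from the other 3 than Dixon's 95% critical value for 4 samples allows, as the gap to the nearest sample divided by the range. Of 213 groups tested, 11 had such a sample, where chance gives about 1 in 20 or 10.6. SLC1A1 in DU145KO had a ratio of 0.876, from 4.46 RPKM in replicate 1 beside 2.66 to 2.89 in the others. SLC22A18 in DU145KO+vector had 0.877, with replicate 4 at 2.21 beside 3.27 to 3.41. In DU145KO+α2, SLC44A1 had 0.84 and SLC46A3 had 0.907, both with replicate 1 highest (18.6 and 7.82 RPKM), SLC29A4 had 0.856 with replicate 2 highest (11.2), SLC7A11 had 0.907 with replicate 3 highest (20.8 beside 13.3 to 14) and SLC22A15 had 0.898 with replicate 1 lowest (0.76). In DU145KO+vector, SLC37A1 had 0.83 with replicate 3 lowest (1.77) and SLC30A1 had 0.83 with replicate 1 highest (15.4). Among the companion genes, SLCO4C1 in DU145KO had 0.851 with replicate 3 highest (2.36), and ABCG2 in DU145KO+vector had 0.954 with replicate 1 at 2.75 beside 4.08 to 4.14.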

How the results depend on the processing

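For DU145KO+α2 against DU145KO+vector, 28 members were called, beside 11.9% of all genes, and 65 with the replicate block, beside 26.5%. With the neighbour shift removed 16 were called (9.57% of all genes), and 58 with both (39 higher and 19 lower, beside 24.9% of all genes, in place of 14 and 14). With a sample left out 14 to 31 were called, beside 8.29% to 12.4% of all genes. The count fell by more than 1.5 times without DU145KO+α2 replicate 3 (14) or DU145KO+vector replicates 2 (16), 3 (14) or 4 (18). In these fits 8.29% to 9.12% of all genes were called. For DU145KO+α2 against DU145KO, with the share of all genes called in brackets, 15 were called (8.17%), 39 with the block (22.3%) and 8 with only the compared lines (6.65%). With the neighbour shift removed 5 were called (7.2%), and 35 with both the shift removed and the block (19.8%). With a sample left out 6 to 12 were called (5.63% to 8.07%). These were 6, 7 and 8 without DU145KO replicates 2, 3 and 4, and 9, 7 and 6 without DU145KO+α2 replicates 2, 3 and 4. For DU145KO+vector against DU145KO, with the same share in brackets, 5 were called (2.34%), 22 with the block (13.4%), 8 by the DESeq2 Wald test (3.98%) and 3 with only the compared lines (1.6%). With the neighbour shift removed 2 were called (1.77%), and 12 with that and the block (10.7%). With a sample left out 0 to 9 were called (1.08% to 3.56%). These were 3, 1 and 9 without DU145KO replicates 1, 2 and 4, and 2, 0 and 2 without DU145KO+vector replicates 2, 3 and 4. SLC39A14 against DU145KO+vector reversed to −0.049 with the neighbour shift removed and to −0.047 with the block as well. The causes were not tested. DESeq2 size factors, voom and no filter on low counts kept each count within 1.5 times. The block ended no call.

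In every fit that left out a sample, 12 of the 28 members called against DU145KO+vector were still called (SLC1A1, SLC4A4, SLC9A9, SLC16A9, SLC25A16, SLC25A37, SLC25A51, SLC27A4, SLC39A9, SLC39A14, SLC44A1 and SLC47A1), 4 of 15 against DU145KO (SLC12A8, SLC37A1, SLC44A1 and SLC46A3) and 0 of 5 between the negative lines. There, SLC16A9 lost its call only without DU145KO+vector replicate 3 (adjusted p = 0.0517). SLC6A8 lost its call in 11 of 12 such fits. The share of all called genes that kept their calls in every such fit was not computed. What depth limits was not tested.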
